A study of Mus musculus with 8 samples.

Results

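The genes described here are 8 of the 56748 genes in the count table, taken by name: the primary (azurophil) granule genes Elane, Mpo, Prtn3 and Ctsg, and the early progenitor and granulocyte-monocyte factor genes Cd34, Sox4, Myb and Cebpe. RNA came from sorted spleen cells, taken 7 days after an aneurysm had been induced: Ly6Chigh monocytes, which are the inflammatory (classical) kind. There were 4 libraries from wild-type (WT) mice and 4 from mice lacking Olfr2 (KO) (an olfactory receptor gene), whose role in aneurysm of the abdominal aorta is the subject of the study. Both genotypes had received the induction, so there was no group without aneurysm, and the sources used here give no strain, age or design of the knockout allele. Whether the libraries stem from different animals is not in the labels, and all p-values below rest on the spread between libraries, which may be technical. Fits over all libraries used the 8, and fits within a series or with libraries left out used fewer.

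Primary granules are built at the promyelocyte stage, early in the granulocyte and monocyte branch of blood formation. They carry neutrophil elastase (Elane), proteinase 3 (Prtn3) and cathepsin G (Ctsg), related serine proteases, together with myeloperoxidase (Mpo), which makes hypochlorous acid. Transcription of these genes is shut down as the cells mature, so that blood monocytes and neutrophils hold the proteins but little of the RNA. Cd34 encodes a surface sialomucin of stem and progenitor cells, Myb and Sox4 encode transcription factors of immature blood cells, and Cebpe encodes the transcription factor that drives secondary granule genes after the primary granules are made.

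The promoters of the 4 granule genes are shown because the levels of these genes were compared as a group. Each window holds 250 bases before and 50 after the RefSeq start (RefSeq, GRCm38.p6), 5′ to 3′ on the strand of the gene: Elane at chr10:79886062-79886361 (plus strand), Prtn3 at chr10:79879417-79879716 (plus), Mpo at chr11:87793534-87793833 (plus) and Ctsg at chr14:56102525-56102824 (minus). Capitals mark matches, on either strand, to 4 short motifs: GAGGAA for PU.1, AACTG for MYB, TGTGGT for RUNX and TTGCNNAA for C/EBP.
Elane: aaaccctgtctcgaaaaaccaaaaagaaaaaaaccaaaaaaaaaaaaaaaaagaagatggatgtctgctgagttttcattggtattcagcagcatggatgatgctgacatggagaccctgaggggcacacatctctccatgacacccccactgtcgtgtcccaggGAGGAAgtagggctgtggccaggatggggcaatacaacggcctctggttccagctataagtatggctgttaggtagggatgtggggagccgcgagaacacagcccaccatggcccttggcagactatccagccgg
Prtn3: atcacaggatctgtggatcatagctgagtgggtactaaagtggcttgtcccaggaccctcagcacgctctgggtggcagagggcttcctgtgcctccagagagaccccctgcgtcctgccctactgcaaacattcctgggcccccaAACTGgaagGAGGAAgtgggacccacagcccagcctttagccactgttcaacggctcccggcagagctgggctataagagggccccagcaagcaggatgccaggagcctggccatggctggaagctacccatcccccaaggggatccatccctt
Mpo: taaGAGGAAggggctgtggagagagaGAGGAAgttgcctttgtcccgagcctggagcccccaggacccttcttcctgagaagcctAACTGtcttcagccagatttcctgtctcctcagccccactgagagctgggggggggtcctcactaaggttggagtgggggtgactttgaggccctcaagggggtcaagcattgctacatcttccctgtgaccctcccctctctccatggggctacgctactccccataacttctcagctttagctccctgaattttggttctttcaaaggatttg
Ctsg: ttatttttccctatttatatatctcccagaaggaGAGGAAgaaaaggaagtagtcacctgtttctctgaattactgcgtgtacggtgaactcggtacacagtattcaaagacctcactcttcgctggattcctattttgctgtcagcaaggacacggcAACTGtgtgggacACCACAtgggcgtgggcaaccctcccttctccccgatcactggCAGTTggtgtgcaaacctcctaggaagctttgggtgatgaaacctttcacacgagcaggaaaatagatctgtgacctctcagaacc

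The PU.1 letters were present in each of these 4 windows, once in Elane, Prtn3 and Ctsg and 2 times in Mpo, and 28.3% of 32851 RefSeq promoter windows of that length held them. The MYB letters were in Mpo, Prtn3 and Ctsg, against 44.8% of all windows, and the RUNX letters in Ctsg, against 16.8%. None of the 4 windows held the C/EBP letters, which 10.8% of all windows held. Of the other genes, the Sox4 window held 1 PU.1 match, and those of Cd34 and Myb held no match to any of the 4 motifs. Such a match is a match of letters and does not show a bound site. Windows were found for 7 of the 8 genes, Cebpe being the exception.

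Total counts lay between 16111725 and 21728794 per library, and 11222 genes passed the filter on low counts. Levels are in CPM, counts scaled to library size and composition. Where a gene had no read, counting error alone left room for 3 counts, which is 0.139 to 0.186 CPM depending on the library. Olfr2 itself had 0 counts in each of the 8 libraries and could not check the genotype labels. All 12 listed classical monocyte genes were tested, and their summed level, mostly Lyz2, lay between 104948 and 121668 CPM in WT and between 116884 and 134862 CPM in KO. Ly6c2 had 4058 to 4889 CPM in WT and 4727 to 6378 CPM in KO. Others of the list were low, such as Itgam with 9.57 to 17.9 CPM in WT and 14.1 to 17.6 CPM in KO. The libraries were not uniform within KO. The numbers in the library names form a 1600 series, with WT 1, WT 2, KO 1 and KO 2, and a 1700 series with the other 4. What these numbers stand for is not in the labels. Of the 12 monocyte genes, Cd14 was higher and Cx3cr1 lower in KO within the 1600 series (edgeR adjusted p = 0.0352 and 0.0333). Within the 1700 series F13a1 was higher (edgeR adjusted p = 0.0448). Of all tested genes, 0.873% passed 0.05 in the 1600 and 1.16% in the 1700 series. KO 1 and KO 2 stood apart from KO 3 and KO 4 in the genes below. The values of the 8 genes are therefore given over all libraries and within each series.

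The first comparison asked whether granule genes differed between KO and WT monocytes. All 4 were highest in KO 1 and KO 2, where their mean levels were 17.9 times the WT mean for Elane, 37.4 times for Mpo, 3.73 times for Prtn3 and 4.23 times for Ctsg. In KO 3 and KO 4 the same ratios were 1.71, 2.60, 0.593 and 1.60. None of the 8 genes passed an adjusted p of 0.05 over all libraries (edgeR quasi-likelihood test, Benjamini-Hochberg over 11222 genes), where 1.06% of all tested genes did (0.223% higher and 0.838% lower in KO). Of the 8, 5 passed the filter on low counts (Elane, Prtn3, Ctsg, Cd34 and Cebpe), and 2 of these 5, Elane and Ctsg, had an unadjusted p under 0.05, as did 2344 of the 11222 tested genes.

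Elane (ENSMUSG00000020125; GRCm38 chromosome 10, 79886247 to 79888215, plus strand) had 4.01, 7.71, 2.59 and 2.48 CPM in WT 1 to 4 and 56.8, 93.2, 11.1 and 3.25 CPM in KO 1 to 4. KO 1 to 3 lay above every WT library, while KO 4 lay below WT 1 and WT 2. The means were 4.20 ± 2.44 CPM for WT against 41.1 ± 42.0 CPM for KO (SD, n = 4 each). On the log2 scale the change was 3.27 ± 1.10 (SE, 95% interval 0.62 to 5.92; edgeR adjusted p = 0.171). DESeq2 called it (adjusted p = 0.0177), in a fit that called 6.99% of tested genes. Without KO 1 and KO 2 the change was 0.77 ± 0.60 (SE, edgeR adjusted p = 0.572).

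Mpo (ENSMUSG00000009350; chromosome 11, 87793581 to 87804413, plus strand) was scarce. It had 4, 2, 3 and 0 reads in WT 1 to 4, whereas KO 1 to 4 had 56, 87, 6 and 7 reads. This was the gene of the 8 whose levels did not overlap between the genotypes, from 0 to 0.205 CPM in WT and from 0.280 to 5.35 CPM in KO. Of genes with at least 1 count, 7.28% did not overlap, and 3.21% had every KO level above every WT level. The exact Poisson 95% intervals were 0.0560 to 0.526 CPM for WT 1, the highest WT library, and 0.103 to 0.610 CPM for KO 3, the lowest KO library. These neighbours thus overlapped within counting error. Pooled over a genotype the level was 0.121 CPM in WT (exact Poisson 95% interval 0.0553 to 0.229, counting error only) and 2.06 CPM in KO (1.75 to 2.40). That pooled KO interval lay below KO 1 and KO 2 and above KO 3 and KO 4. Mpo did not pass the filter on low counts. With no filter its log2 change was 4.16 ± 1.34 (SE), which did not pass either (edgeR adjusted p = 0.208), where 3.5% of genes passed.

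Prtn3 (ENSMUSG00000057729; chromosome 10, 79874476 to 79883174, plus strand), which lies next to Elane, was the most abundant of the 4 in WT. Its levels were 34.3, 19.1, 20.2 and 33.0 CPM in WT 1 to 4 and 81.7, 117, 18.0 and 13.7 CPM in KO 1 to 4. KO 1 and KO 2 lay above every WT library, and KO 3 and KO 4 below every WT library. The mean difference, 26.7 ± 8.11 CPM in WT against 57.7 ± 50.6 CPM in KO (SD, n = 4 each), therefore joined opposite values, and the log2 change of 1.11 ± 0.74 (SE) did not pass (edgeR adjusted p = 0.439). Without KO 1 and KO 2 it was -0.74 ± 0.27 (edgeR adjusted p = 0.233). Prtn3 overlaps Plppr3 on the opposite strand, and no source used here gives the strand setting of the counting, so reads of the pair may not be told apart. Plppr3 had 1.34, 2.90, 3.13 and 2.36 CPM in WT 1 to 4 and 4.61, 3.57, 1.12 and 1.86 CPM in KO 1 to 4, so KO 1 and KO 2 were above and KO 3 and KO 4 below the WT mean of 2.43 CPM, as for Prtn3.

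Ctsg (ENSMUSG00000040314; chromosome 14, 56099881 to 56102574, minus strand) had 4.62, 2.65, 4.97 and 2.61 CPM in WT 1 to 4 and 11.1, 20.3, 6.91 and 4.97 CPM in KO 1 to 4. KO 1 to 3 lay above every WT library, and KO 4 lay just under the highest of them, WT 3. The means were 3.71 ± 1.26 CPM for WT against 10.8 ± 6.82 CPM for KO (SD, n = 4 each). On the log2 scale the change was 1.53 ± 0.43 (SE; edgeR adjusted p = 0.101). It passed without KO 4 (1.76 ± 0.36, edgeR adjusted p = 0.0327) and with DESeq2 (adjusted p = 0.00391). Without KO 2 the change was 1.04 ± 0.32 (edgeR adjusted p = 0.188), and without KO 1 and KO 2 it was 0.69 ± 0.32 (edgeR adjusted p = 0.315).

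**Figure D1:**
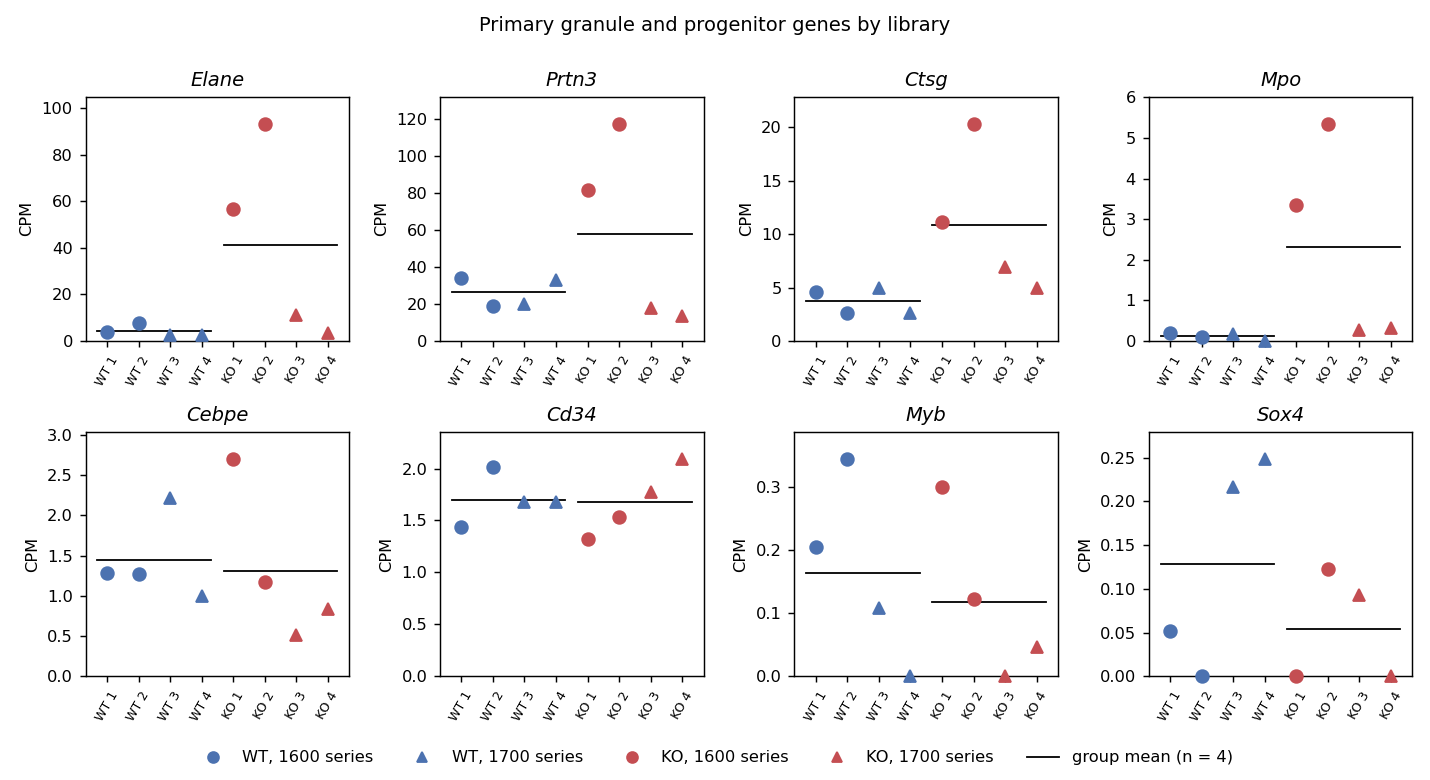
Levels of the 8 genes in each library, in CPM on linear axes that start at 0 and differ between panels, with the group mean of 4 libraries as a line. In the upper row KO 1 and KO 2 are the highest points of each granule gene (56.8 and 93.2 CPM for Elane), while KO 3 and KO 4 lie near the WT points; in the lower row the genotypes overlap for each gene.

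Within the 1600 series, which holds KO 1 and KO 2, Mpo, Elane and Ctsg rose. The log2 change was 4.77 ± 0.56 for Mpo (SE, edgeR adjusted p = 0.0202), 3.66 ± 0.38 for Elane (edgeR adjusted p = 0.0337) and 2.09 ± 0.37 for Ctsg (edgeR adjusted p = 0.0475). Prtn3 had 1.88 ± 0.31 (edgeR adjusted p = 0.0544). So 3 of the 6 genes tested there passed, all higher, where 0.644% of the 11342 tested genes were called higher. Mpo entered that fit through KO 1 and KO 2 alone, so that its place among the tested genes depended on its high levels.

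Within the 1700 series none of 5 tested genes passed, where 1.16% of genes did, and 3 had an unadjusted p under 0.05 (Elane, Prtn3 and Cebpe), as did 2555 of the 11521 genes tested there. There Elane and Prtn3 had changes of opposite sign. Elane had 1.50 ± 0.56 (SE, edgeR adjusted p = 0.190) and Prtn3 -0.74 ± 0.27 (edgeR adjusted p = 0.166), while Ctsg had 0.64 ± 0.36 (edgeR adjusted p = 0.337). The difference between the series was tested as an interaction term, which was called for 0.784% of all tested genes. For Prtn3 it was -2.65 ± 0.48 (1700 minus 1600, SE, edgeR adjusted p = 0.0494). For Elane it was -2.18 ± 0.90 (edgeR adjusted p = 0.318), and for Ctsg -1.47 ± 0.58 (edgeR adjusted p = 0.241). The Prtn3 call was narrow: with 1 library left out at a time the term lay between -3.13 and -2.25, and it passed without WT 1 and in none of the other 7 fits (edgeR adjusted p from 0.0350 to 0.238), each of which rests a group on 1 library that is assumed to vary like the others.

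**Figure D2:**
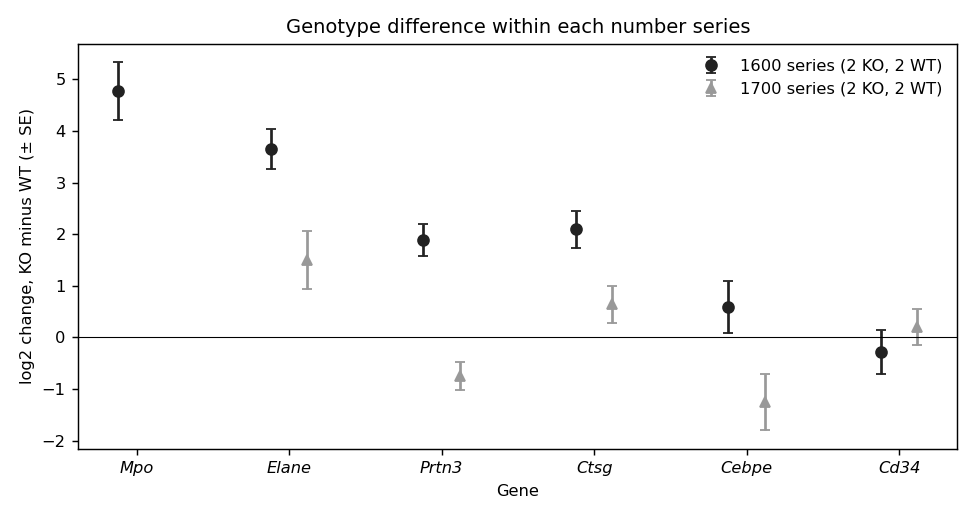
Log2 change of KO against WT for each gene, fitted separately in the 1600 series (circles) and the 1700 series (triangles), with 2 KO and 2 WT libraries each and bars of 1 SE; Mpo was not tested in the 1700 series. The circles lie at 4.77 for Mpo and 1.88 for Prtn3, and the triangle of Prtn3 lies below 0 at -0.74.

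The makeup of the granule reads was then compared within each library, which needs no scaling between libraries. Elane, Mpo, Prtn3 and Ctsg together had between 27.9 and 43.2 CPM in WT, and 153, 236, 36.2 and 22.2 CPM in KO 1 to 4. Prtn3 gave 79.5, 64.7, 72.3 and 86.6% of their reads in WT 1 to 4, whereas its share was 53.4, 49.7, 49.6 and 61.5% in KO 1 to 4. Every KO share lay below every WT share, in both number series, also in KO 3 and KO 4, where the summed level was within or near the WT range. The Wilson 95% intervals were 60.8 to 68.4% for WT 2, the lowest WT library, and 57.1 to 65.8% for KO 4, the highest KO library, so that these neighbours overlap within counting error. The group means were 75.8 ± 9.44% in WT and 53.6 ± 5.58% in KO (SD, n = 4 each), and leaving out 1 library at a time left the difference between -25.9 and -18.6 percentage points. This share was chosen after its values had been seen and is given without a test.

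The remainder was mainly Ctsg and Elane, and which of them was larger differed between libraries: Elane gave more reads than Ctsg in WT 2 and KO 1 to 3, and Ctsg more than Elane in WT 1, WT 3, WT 4 and KO 4. Elane had 0.117, 0.403, 0.128 and 0.0752 reads per Prtn3 read in WT 1 to 4, whereas KO 1 to 4 had 0.695, 0.793, 0.616 and 0.238. WT 2 had the highest ratio in WT, above KO 4. Ctsg had 0.0789 to 0.246 reads per Prtn3 read in WT and 0.136 to 0.384 in KO, with the highest ratios in KO 3 and KO 4. The 4 genes thus did not keep 1 ratio across libraries. Over the 8 libraries Pearson's r of log2 CPM between Elane and Prtn3 was 0.81, and over the 6 libraries without KO 1 and KO 2 it was -0.31, values given as a description of libraries that also differ in genotype and series.

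**Figure D3:**
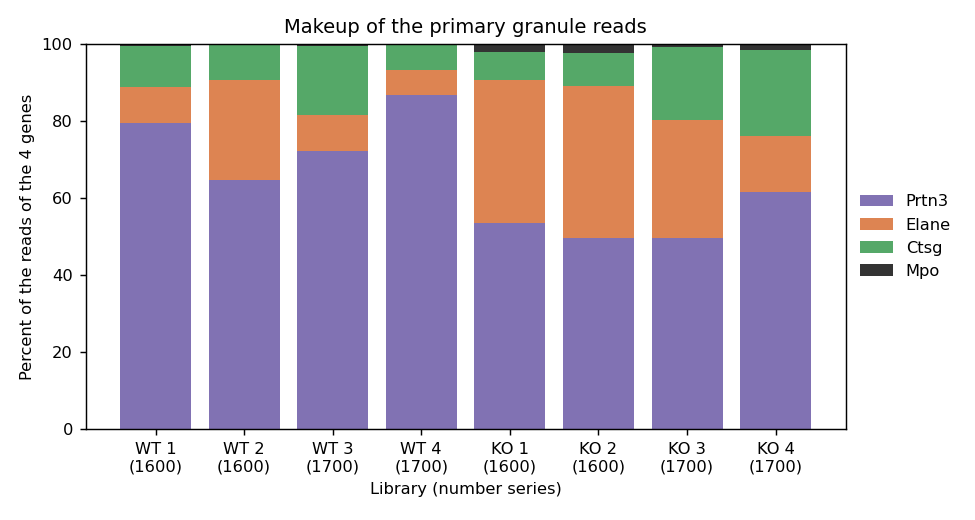
Share of each gene among the reads of Elane, Mpo, Prtn3 and Ctsg in each library (stacked bars, percent from 0 to 100), with the number series under each name. Prtn3, the lowest segment, holds 64.7% or more in each WT library and 61.5% or less in each KO library.

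The second comparison asked whether the progenitor and factor genes moved with the granule genes. Cd34, Cebpe, Myb and Sox4 overlapped between the genotypes, and none passed in any of the fits that included them. Cd34 (ENSMUSG00000016494; chromosome 1, 194938819 to 194961279, plus strand) had 1.44, 2.01, 1.68 and 1.68 CPM in WT 1 to 4 and 1.32, 1.54, 1.78 and 2.09 CPM in KO 1 to 4. The lowest levels of this gene were in KO 1, WT 1 and KO 2, so that KO 1 and KO 2, the libraries highest in granule genes, were among the lowest in Cd34. Its log2 change was -0.01 ± 0.27 (SE, edgeR adjusted p = 0.987), with a 95% interval of -0.59 to 0.57.

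Cebpe (ENSMUSG00000052435; chromosome 14, 54710360 to 54712174, minus strand) had 1.28, 1.28, 2.22 and 0.993 CPM in WT 1 to 4 and 2.70, 1.17, 0.514 and 0.836 CPM in KO 1 to 4. KO 1 was the highest library and KO 2 was not, while KO 3 and KO 4 were the lowest. The log2 change was -0.17 ± 0.46 over all libraries (SE, edgeR adjusted p = 0.858), with a 95% interval of -1.17 to 0.82. It was 0.58 ± 0.50 in the 1600 series (edgeR adjusted p = 0.563) and -1.25 ± 0.55 in the 1700 series (edgeR adjusted p = 0.223).

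Myb (ENSMUSG00000019982; chromosome 10, 21124935 to 21160984, minus strand) had 4, 7, 2 and 0 reads in WT 1 to 4, while KO 1 to 4 had 5, 2, 0 and 1. Sox4 (ENSMUSG00000076431; chromosome 13, 28948919 to 28953713, minus strand) had 1, 0, 4 and 4 reads in WT 1 to 4, while KO 1 to 4 had 0, 2, 2 and 0. Neither gene had more than 7 reads in any library. Pooled over a genotype, Myb had 0.175 CPM in WT (exact Poisson 95% interval 0.0930 to 0.299, counting error only) and 0.105 CPM in KO (0.0455 to 0.208). Sox4 had 0.121 CPM in WT (0.0553 to 0.229) and 0.0527 CPM in KO (0.0144 to 0.135). No difference was detectable at this depth, and both failed the filter on low counts.

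Levels were compared between genes per kilobase of merged exons. In WT the order was Prtn3 (15.4 ± 4.68 CPM per kilobase, SD, n = 4), Elane (4.27 ± 2.48), Ctsg (3.59 ± 1.22), Cebpe (1.16 ± 0.43), Cd34 (0.233 ± 0.032), Mpo (0.0340 ± 0.0261), Sox4 (0.0269 ± 0.0254) and Myb (0.0184 ± 0.0163). Elane and Ctsg did not differ beyond their spread, nor did Mpo, Sox4 and Myb. In KO the means were 41.7 CPM per kilobase for Elane and 33.3 for Prtn3, with SDs of 42.7 and 29.2. By the longest transcript in place of merged exons, the WT level of Prtn3 was 26.0, that of Cd34 0.555 and that of Myb 0.0445 CPM per kilobase. Myb then came before Mpo (0.0423) and Sox4 (0.0269), so the order of these scarce genes depended on the length used.

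Further genes of the primary granule were read from a list of 18. Of these 15 were tested, 10 with a positive and 5 with a negative change, and 2 passed, both higher in KO; 0.223% of all tested genes were called higher. The median log2 change was 0.23 against -0.0038 over all tested genes. The 2 were Serpinb1a, an inhibitor of elastase, proteinase 3 and cathepsin G, and Nkg7, a granule membrane protein of cytotoxic cells. Nkg7 had 0.360, 0.393, 0.486 and 0.496 CPM in WT 1 to 4 and 1.68, 2.83, 1.07 and 1.11 CPM in KO 1 to 4, that is, 1.92 ± 0.41 on the log2 scale (SE, edgeR adjusted p = 0.0433). Its WT levels alone would not have passed the filter on low counts, so its place among the tested genes depended on its KO levels. Serpinb1a had 93.5 to 117 CPM in the WT libraries and 160, 179, 187 and 166 CPM in KO 1 to 4, that is, 0.70 ± 0.12 on the log2 scale (SE, edgeR adjusted p = 0.0341). For both genes every KO library was above every WT library, as for 5.35% of all tested genes. Nkg7 passed in neither series, with 2.54 ± 0.53 in the 1600 series (edgeR adjusted p = 0.0664) and 1.15 ± 0.50 in the 1700 series (edgeR adjusted p = 0.223). Serpinb1a had changes of 0.54 ± 0.13 in the 1600 series (edgeR adjusted p = 0.0929) and 0.87 ± 0.15 in the 1700 series (edgeR adjusted p = 0.0448).

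For 6 of the 18 genes (Ms4a3, Prss57, Cst7, Nkg7, Gusb and Fcnb) KO 1 and KO 2 were both above the other 6 libraries, and for Lyz1, a lysozyme, both were below them. The share of all genes with this order was not counted, so these counts have no background to be set against. Lyz1 had 82.8 to 224 CPM in WT and 42.0, 67.5, 157 and 168 CPM in KO 1 to 4 (1600 series -1.34 ± 0.50, SE, edgeR adjusted p = 0.277). Ms4a3, a membrane protein of granulocyte-monocyte progenitors, had 0 to 0.393 CPM in WT and 3.11, 6.89, 0.981 and 0.232 CPM in KO 1 to 4; it was tested in the 1600 series, which it entered through KO 1 and KO 2, where it rose by 4.01 ± 0.56 on the log2 scale (SE, edgeR adjusted p = 0.0337). Fcnb, the ficolin of immature neutrophils and monocytes, had 6.76 to 16.5 CPM in WT and 36.1, 65.8, 23.7 and 12.9 CPM in KO 1 to 4, and its log2 change was 1.62 ± 0.51 (SE; edgeR adjusted p = 0.144; 0.0633 in the 1600 and 0.147 in the 1700 series). Prss57, a further serine protease, had at most 0.245 CPM in WT and 0.479, 1.17, 0.0934 and 0.0929 CPM in KO 1 to 4. Ctsc, the protease that activates the granule serine proteases, was of neither kind: it had 1545 to 2636 CPM in WT and 2612, 2925, 3134 and 3369 CPM in KO 1 to 4 (log2 change 0.46 ± 0.15, SE, edgeR adjusted p = 0.123).

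Other stem and progenitor genes were read from a list of 17. Of these 6 had no read in any library, among them Gata2 and Hoxa9, which encode transcription factors of stem and early progenitor cells. A further 6 were tested, with a median log2 change of -0.15, and 0 passed (edgeR). An unadjusted p under 0.05 was found for 0 of them (edgeR), and for 2344 of the 11222 tested genes. Kit, the stem cell factor receptor, had at most 0.103 CPM in WT and 0.240, 0, 0.0467 and 0.0929 CPM in KO 1 to 4. Flt3, a cytokine receptor of multipotent progenitors and dendritic cells, had 11.7 to 17.7 CPM in WT and 15.8 to 18.0 CPM in KO (edgeR adjusted p = 0.551). The summed level of the list, mostly Lmo2, a transcriptional cofactor of stem cells, was 117, 95.3, 145 and 131 CPM in KO 1 to 4, and between 132 and 163 CPM in the WT libraries.

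Most listed markers of later neutrophil stages were highest in the same libraries: for 15 of 21, KO 1 and KO 2 were both above the other 6 libraries, and for 1, Cd177, both were below them. Here too the share of all genes with this order was not counted. Of the 21 listed secondary granule, calprotectin and neutrophil genes, 12 were tested over all libraries and 0 passed (edgeR). Of these 12, 8 had an unadjusted p under 0.05 (edgeR), as did 2344 of the 11222 tested genes. Within the 1600 series 19 of the 21 were tested, some of them only through KO 1 and KO 2. Of the 19, 5 were called higher (Ltf, S100a8, S100a9, Retnlg and Cxcr2) and 1 lower. Of all genes tested there, 0.644% were called higher and 0.873% in either direction. Ltf, Retnlg and Cxcr2 entered that fit through KO 1 and KO 2, so their place among the tested genes depended on their high levels. These calls therefore cannot be set against the share of all genes. The gene called lower was Cd177, a neutrophil surface protein, with 323 to 392 CPM in WT and 223, 208, 282 and 321 CPM in KO 1 to 4 (1600 series -0.86 ± 0.13, SE, edgeR adjusted p = 0.0339). Padi4, an arginine deiminase of neutrophils, had 8.27 to 15.2 CPM in WT and 7.13, 5.91, 6.68 and 5.85 CPM in KO 1 to 4. Within the 1700 series 12 were tested and 1 was called, S100a9, higher in KO (1.74 ± 0.27, SE, edgeR adjusted p = 0.0444), where 1.16% of all genes were called. Ltf (lactoferrin) had 0.0491 to 0.205 CPM in WT and 6.65, 4.67, 0.140 and 0.279 CPM in KO 1 to 4. Ngp (neutrophilic granule protein) had 1.54, 0, 0 and 0 CPM in WT 1 to 4 and 108, 86.8, 0.187 and 0.0464 CPM in KO 1 to 4. Ly6g, the surface antigen that defines mouse neutrophils, had 0 to 0.124 CPM in WT and 1.08, 0.923, 0.140 and 0.186 CPM in KO 1 to 4. Of the 15 genes, 9 were higher in KO 1 than in KO 2 and 6 were higher in KO 2, while Elane, Mpo, Prtn3 and Ctsg were all higher in KO 2. The summed level of the list, mostly Chil3, which monocytes also express, was 11153 to 17075 CPM in WT and 22787 to 53379 CPM in KO. Whether such cells were part of the granule gene levels was not tested, and in bulk RNA more cells of a type and more RNA per cell cannot be told apart.

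**Figure D4:**
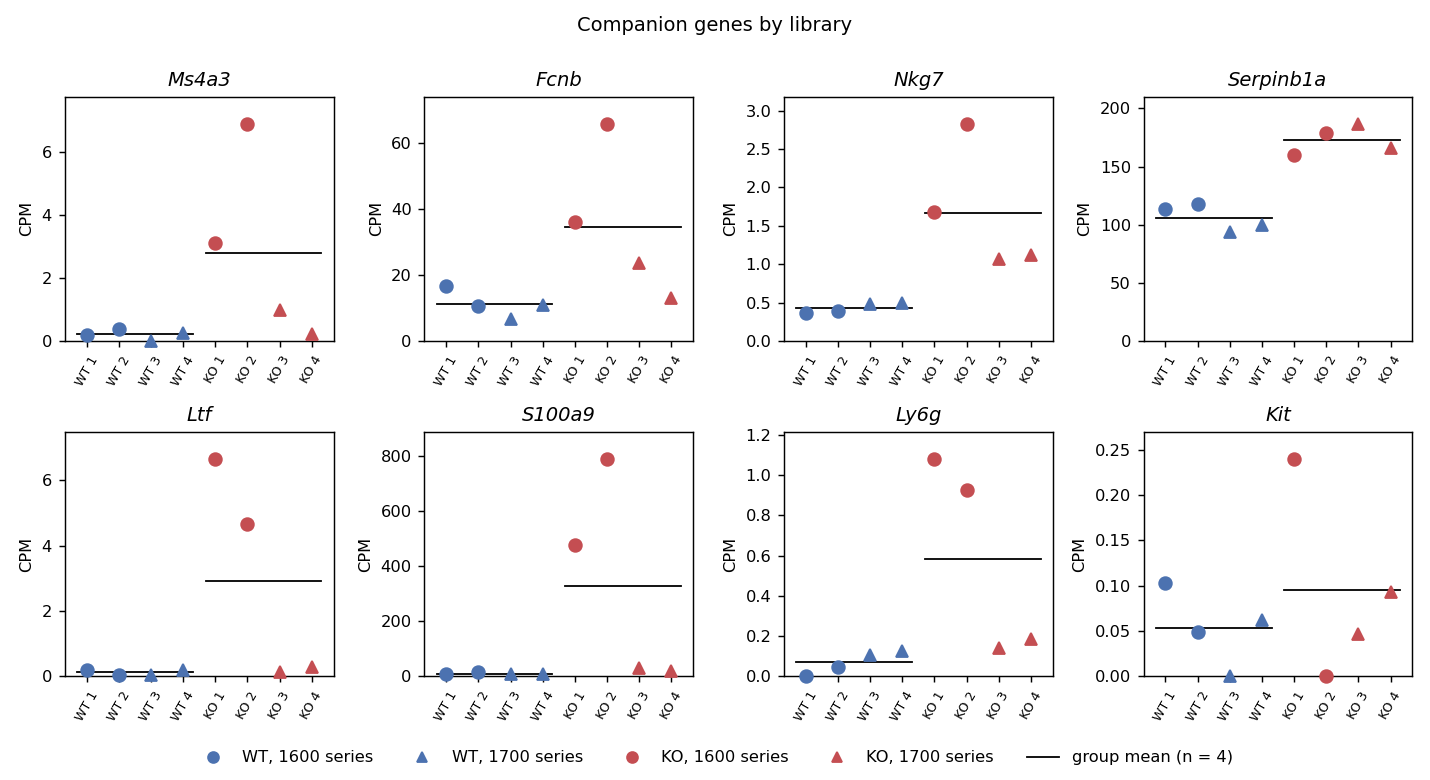
Levels of 8 companion genes in each library, in CPM on linear axes that start at 0 and differ between panels, with group means of 4 libraries as lines. Ms4a3, Fcnb, Ltf and Ly6g are highest in KO 1 and KO 2, Serpinb1a is higher in all 4 KO libraries than in every WT library, and Kit stays at or below 0.240 CPM.

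Other cell types that use these genes were read from their own lists. Of 12 mast cell and basophil genes, which include cells with cathepsin G, 7 had no read in any library, Cpa3 (mast cell carboxypeptidase) had none in 7 of 8 libraries, and the summed level, mostly Hdc, was 1.62 to 6.64 CPM in WT and 2.90 to 6.23 CPM in KO. Endothelial genes, whose cells carry Cd34, summed to 0.442 to 1.13 CPM in WT and 0.467 to 1.23 CPM in KO, with 7 of 12 at 0. B lineage genes summed to 182 to 372 CPM in WT and 205 to 363 CPM in KO, mostly Ighm, with 7 of 13 at 0. T and NK lineage genes, of which none passed the filter, summed to at most 2.32 CPM in any library. Erythroid and megakaryocyte genes summed to 4.16 to 11.4 CPM in WT and to 10.8, 11.4, 27.3 and 6.36 CPM in KO 1 to 4, with 4 tested and none called. The summed level of dendritic cell genes, mostly Cd209a, Irf7 and Bst2, was 412, 255, 768 and 746 CPM in KO 1 to 4, against 638 to 833 CPM in WT. Of 6 tested, 1 passed, lower in KO, where 0.838% of all tested genes were called lower (Bst2, an interferon-induced antiviral membrane protein, log2 change -0.71 ± 0.14, SE, edgeR adjusted p = 0.0377; 0.119 in the 1600 and 0.0554 in the 1700 series). Of 18 listed proliferation genes, 17 were tested and 1 passed, where 0.223% of all tested genes were called higher: Kif11, a mitotic kinesin (log2 change 3.33 ± 0.65, SE, edgeR adjusted p = 0.0432; 0.0761 in the 1600 and 0.0732 in the 1700 series). Kif11 had 0.103, 0.785, 0.162 and 0.186 CPM in WT 1 to 4. In KO 1 to 4 it had 2.87, 5.47, 3.78 and 0.98 CPM. Its WT levels alone would not have passed the filter on low counts. Its place among the tested genes thus depended on its KO levels. All 17 tested proliferation genes had a positive change and an unadjusted p under 0.05, which 2344 of the 11222 tested genes had in either direction, and the median log2 change was 2.41. For 3 of the 18 every KO library was above every WT library, as for 3.21% of genes with at least 1 count. For 15 KO 1 and KO 2 were both above the other 6, an order whose share over all genes was not counted. Their summed level was 748, 1285, 599 and 293 CPM in KO 1 to 4 and 178, 334, 193 and 159 CPM in WT 1 to 4. KO 2 was the highest in that sum, as in each granule gene. WT 2 was the highest of WT in it, as in Elane and in no other granule gene. In Prtn3 WT 2 was the lowest of WT (19.1 CPM), and in Ctsg and Mpo it was below WT 1 and WT 3. Mpo had at most 4 reads in any WT library, so its order within WT lay within counting error. The part of the proliferation genes in the granule gene levels was not tested.

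The genes most like each member over the 8 libraries were found by Pearson's r of log2 CPM among all tested genes; such values are the highest of 11222 and are given without a test. For Elane they were Cep76, Mcm2, Tubb5, Ccne1 and Phgdh, with r between 0.98 and 0.99. Mcm2 is a subunit of the replicative helicase and Ccne1 the cyclin of the entry into S phase. Without KO 1 and KO 2, r between Elane and Mcm2 was 0.98 over 6 libraries, and Mcm2 had 1.95, 3.09, 1.35 and 1.18 CPM in WT 1 to 4 and 6.89, 10.5, 3.83 and 1.25 CPM in KO 1 to 4. For Ctsg they were Manf, Pcna, Lgals1, Ccdc138 and Mgst3, with r between 0.97 and 0.99. Manf was the first (r = 0.99, and 0.96 over 6 libraries), and Pcna, the sliding clamp of DNA polymerase, the next (r = 0.98, and 0.94 over 6 libraries). For Prtn3 the 5 genes were Best1, H2-T-ps, Gm50240, Gyg and Mms22l, with r between 0.96 and 0.99. None of the 5 was shared with Elane or Ctsg, which shared none with each other either. Cd34 was most like Trdmt1 (r = 0.98) and Cebpe most like Coasy (r = 0.99).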

How the data were processed

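RNA of sorted monocytes was made into libraries by template switching from oligo-dT primers, per the labels' protocols. For the 8 libraries the authors deposited whole-number, unnormalized gene counts in a single table. Per the submitters' processing notes, the tools included featureCounts 1.5.0-p3 as well as HISAT2 2.0.5, with GRCm38 as the build; no source used here gives the annotation release or the strand setting. Reads of overlapping genes or paralogs may be split or lost in such counts, and without molecular identifiers PCR copies cannot be set apart, so intervals cover counting error only.

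The counts were tested over the whole table by the robust quasi-likelihood test of edgeR 4.0.16 in R 4.3.3, after filterByExpr and TMM scaling, and p-values were adjusted by Benjamini-Hochberg (threshold 0.05); the SE is the log2 change divided by the root of the F statistic. The common biological coefficient of variation was 22.4%. DESeq2 1.42.0, limma-voom (limma 3.58.1), offsets (mgcv 1.9.3), other filters and scalings, the number series and left-out libraries were alternatives. Fits were tested on simulated data. Log2 CPM for likeness used a prior count of 2. Coordinates and lengths come from GENCODE M21 (GRCm38), which held 52125 of the 56748 identifiers. Replicate pairs differed by more than sampling noise (chi-square per degree of freedom 16.5 to 77.0), and each library was taken as 1 replicate.

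The members and gene lists were chosen with earlier results of these data known. Named were the 8 members, listed genes that passed, up to 4 listed genes of highest level, and the 5 genes most like each tested member; those a comparison rests on are printed. Other listed genes printed with values (such as Ms4a3, Fcnb, Ltf, Ngp, Ly6g and Kit) were picked, and the counts of listed genes with KO 1 and KO 2 above or below the other libraries made, after their values were seen. These counts describe the listed genes and were not compared with all genes. A protein comparison of the 4 granule genes was planned and not made, as no protein sequence was used here.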

Additional observations from a re-analysis of the deposited data

Results flagged for a closer look

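The genotype difference of Prtn3 differed between the number series, with an interaction of -2.65 (log2, 1700 minus 1600; edgeR adjusted p = 0.0494), and that of S100a9, a calprotectin subunit gene of neutrophils, with -3.86 (edgeR adjusted p = 0.0369). Levels of S100a9 were 479, 789, 31.6 and 20.3 CPM in KO 1 to 4, against 7.30 to 16.2 CPM in WT.

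Single libraries far from their 3 replicates appeared in 9 of the 124 sets of values examined; chance alone would give about 6.2. Among the values of the members it was the ratio of Elane to Prtn3 reads, at 0.403 in WT 2. WT 2 also stood apart in Kif11 (0.785 CPM) and Chil3 (6823 CPM), a chitinase-like protein. WT 1 stood apart in Camp (0.668 CPM) and Ngp (1.54 CPM), WT 4 in Cxcr2 (0.621 CPM) and Cpa3 (0.0621 CPM), WT 3 in Retnlg (0.0540 CPM), and KO 2 in Ly6c2 (6378 CPM). Cpa3 and Retnlg rested on single reads there.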

How the results depend on the processing

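Of 20 alternatives, the count of the 8 genes that passed KO against WT stayed at 0 in 17; it was 2 with DESeq2, 3 within the 1600 series and 1 without KO 4, so that leaving out 1 library gave 0 to 1. The count over all genes, 119, was 742 with no filter, 784 with DESeq2, 0 with limma-voom, 251 with the number series as covariate, 7 without KO 1 and KO 2, 1 with length and GC offsets, and 0 to 515 with 1 library left out (515 without WT 2). The replicate block gave 244 calls (143 higher, 101 lower, against 25 and 94) and none of the 8 genes; same-numbered libraries did not deviate together (correlations -0.0132, -0.0280, -0.0494 and 0.0926), so the numbers were not taken as pairs. With no filter, 2 genes had a called interaction with the number series (Prtn3 and Ctsg). The share of all genes called in that fit was not counted, so these calls have no background to be set against. The edgeR p of the Prtn3 term was 8.66e-20 there, against 0.000386 with the filter, where Ctsg was not called (edgeR adjusted p = 0.241). With 1 library left out at a time, an alternative added after the data were seen, the Prtn3 term lay between -3.13 and -2.25. The log2 change of Prtn3 turned to -0.74 in the 1700 series and to -0.74 without KO 1 and KO 2. Cd34, near 0, turned to 0.21 in the 1700 series and 0.19 without KO 1 and KO 2, and lay between -0.14 and 0.089 with 1 library left out. Cebpe turned to 0.58 in the 1600 series and 0.19 with offsets, and lay between -0.79 and 0.11 with 1 library left out. The cause of these shifts was not tested. Myb and Sox4, at 7 reads or fewer per library, were limited by depth.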

Other observations

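Transcription factors and cytokine receptors of the granulocyte-monocyte branch, read from a list of 17, did not pass over all libraries: of 15 tested, 0 were called. A negative change was found for 13 and a positive one for 2, and 8 had an unadjusted p under 0.05 (edgeR; 2344 of 11222 over all genes), with a median log2 change of -0.56 against -0.0038 over all tested genes. Cebpb, a C/EBP factor of monocytes and of emergency granulocyte formation, had 213 to 244 CPM in WT and 178, 59.2, 77.4 and 88.7 CPM in KO 1 to 4, every KO library below every WT library. Its log2 change was -1.20 ± 0.30 (SE; edgeR adjusted p = 0.0844). It passed in the 1700 series (-1.51 ± 0.15, edgeR adjusted p = 0.0303), where 1.16% of genes did, and not in the 1600 series (edgeR adjusted p = 0.511). Cebpa, which opens the granulocyte-monocyte program, had 9.86, 15.7, 21.2 and 12.7 CPM in WT 1 to 4 and 12.5, 6.64, 9.67 and 11.1 CPM in KO 1 to 4 (log2 change -0.57 ± 0.25, SE, edgeR adjusted p = 0.206; 0.542 in the 1600 and 0.191 in the 1700 series). Klf4, a factor of monocyte differentiation, had 2.17 to 5.51 CPM in WT and 1.44, 1.23, 1.96 and 1.39 CPM in KO 1 to 4, every KO library below every WT library (log2 change -1.30 ± 0.32, SE, edgeR adjusted p = 0.0611; 0.124 in the 1600 and 0.192 in the 1700 series). Such groups without overlap were found for 4 of the 17, all lower in KO, where 11.4% of all tested genes did not overlap in either direction. Gfi1, a transcriptional repressor needed for neutrophil differentiation, had no read in 7 of 8 libraries. Of the KO libraries, KO 1 had the most Cebpa and KO 2 the least, although both were highest in granule genes.

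Of 8 genes beside the granule protease loci, 4 were tested and 0 passed (edgeR). Among the 4, 1 had an unadjusted p under 0.05 (edgeR), as did 2344 of the 11222 tested genes. For Plppr3, which overlaps Prtn3, KO 1 and KO 2 were above the other 6 libraries, with 0.93 ± 0.42 in the 1600 series (SE, edgeR adjusted p = 0.273) and -0.88 ± 0.38 in the 1700 series (edgeR adjusted p = 0.221); no other gene of the list had both above the rest. Cfd, listed as a neighbour of Prtn3 and Elane, had no read in any library, and R3hdm4 averaged 119 ± 22.8 CPM over WT libraries against 91.1 ± 7.41 CPM over KO libraries (SD, 4 each; log2 change -0.39 ± 0.14, SE, edgeR adjusted p = 0.150; 0.291 in the 1600 and 0.279 in the 1700 series). On chromosome 14, Gzmb, a granzyme gene, ranged from 0.147 to 0.811 CPM over WT libraries and from 0.359 to 0.841 CPM over KO libraries (edgeR adjusted p = 0.602).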
